A study of Mus musculus with 10 samples.

Results

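The PD subset of an untreated mouse acute promyelocytic leukaemia (APL) was compared with the SC subset of the same kind of leukaemia, using the 2 arrays titled as the PD subset (UNPD) and the 2 titled as the SC subset (UNSC), 4 of the 10 arrays of the series. Neither group had received all-trans retinoic acid (ATRA), the RARα ligand that differentiates APL cells. The labels place the mice on the FVB N/J background at 8 to 10 weeks of age, and the series title gives them a PML-RARα transgene. Both groups were leukaemic marrow cells marked with GFP by a retrovirus, grown in syngeneic recipients and isolated by flow cytometry as GFP-positive cells, so they shared the fusion, the virus and the host and differed, as far as the labels say, in the sorted subset. The labels do not spell out SC or PD. Nor do they give the surface markers of the sort, the promoter of the transgene, the number of animals behind a sample or whether the samples came from 1 leukaemia. The submitters call the arrays of a group biological replicates, and p-values measure the spread between arrays so labelled.

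PML-RARα joins the nuclear body protein PML to the retinoic acid receptor RARα, represses retinoid target genes and holds myeloid cells at the promyelocyte stage. In normal marrow, promyelocytes fill primary granules with myeloperoxidase and serine proteases. Their progeny then leave the cell cycle and make secondary granules with lactoferrin and, later, tertiary granules with gelatinase, a sequence driven by the C/EBP transcription factors.

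The values were log2 array signals, on which a difference of 1 is a 2-fold change. A gene was called when limma's moderated test across all genes gave a Benjamini-Hochberg adjusted p under 0.05, and each difference is UNPD minus UNSC ± SE of that fit. Across 6329 bright genes (mean log2 signal 9 or more), log2 differences had an SD of 0.158 between the UNSC arrays, 0.305 between the UNPD arrays and 0.752 to 0.964 between a UNPD and a UNSC array. The groups therefore lay further apart than the replicates of either. The UNPD arrays had lower 75th percentiles of log2 signal (8.28 and 8.35) than the UNSC arrays (8.73 and 8.70). Medians were close (5.59 and 5.50 against 5.64 and 5.58), as were trimmed means of linear signal (496.3 and 496.7 against 497.0 and 496.9). The difference in 75th percentile and the group cannot be told apart with these 4 arrays. Calls were therefore repeated under 3 other scalings (quantile, common 75th percentile and cyclic loess). In bulk RNA of sorted cells, more cells of a kind and more RNA per cell cannot be told apart.

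Of 14581 genes tested, 3766 were called (25.8%), 1551 higher (10.6%) and 2215 lower (15.2%) in UNPD. The sizes differed by direction: called higher genes had a median fold of 1.66 and 268 of them reached 2-fold, while called lower genes had a median fold of 2.74 and 1751 reached 2-fold. The median gene was shifted by 0.20 under the deposited scaling and by 0.31, 0.60 and 0.33 under quantile, 75th percentile and cyclic loess scaling. The share of calls that were higher was 41.2%, 54.0%, 72.9% and 56.7% in the same order. Under all 4 scalings, 1214 genes (8.33%) were called higher and 1551 (10.6%) lower. Leaving out UNPD replicate 1, UNPD replicate 2, UNSC replicate 1 or UNSC replicate 2 gave 186, 836, 447 or 301 higher calls (1.28%, 5.73%, 3.07% and 2.06% of genes) and 1005, 2012, 1371 or 1217 lower ones (6.89%, 13.8%, 9.40% and 8.35%). Higher and lower calls made up 15.2% and 12.9% of genes after quantile normalization, 30.3% and 11.3% under the 75th percentile, 17.6% and 13.5% after cyclic loess, and 9.94% and 13.7% after a length trend was subtracted. Below, list counts under the deposited scaling are to be read beside the 10.6% of all genes called higher and the 15.2% called lower. Counts with 1 array left out are given in this order of arrays. Where no array is mentioned beside a gene named as called, the gene stayed called without each of the 4 arrays in turn.

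**Figure D1:**
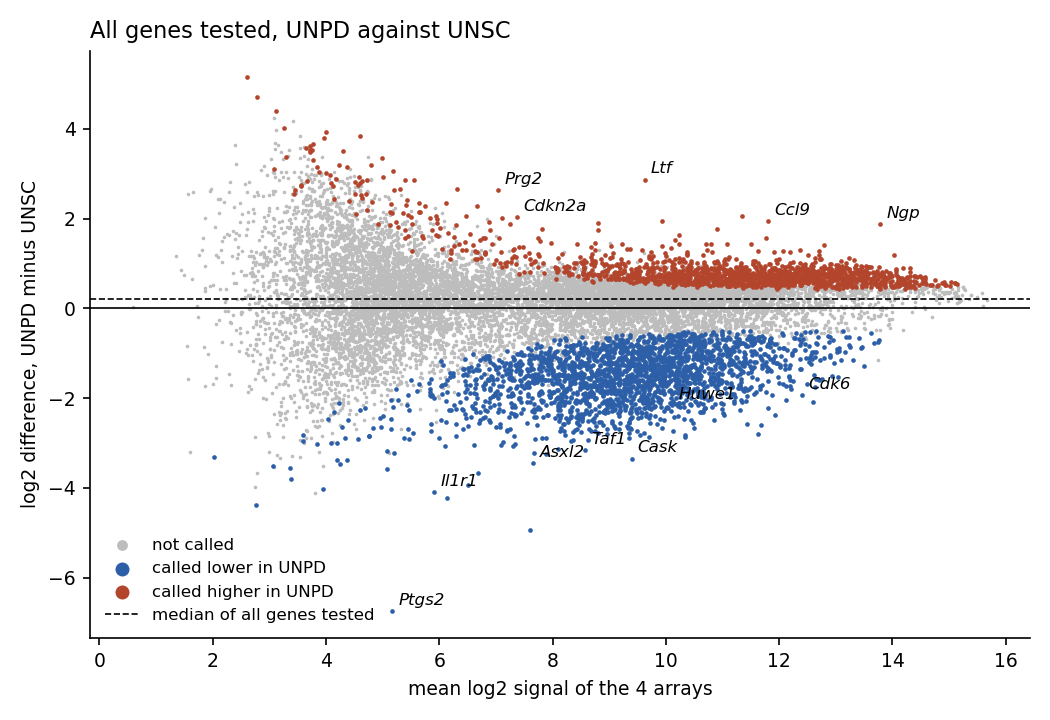
Each point is 1 of the 14581 genes tested, with its mean log2 signal over the 4 arrays on the x axis and its log2 difference (UNPD minus UNSC) on the y axis; red and blue mark genes called higher and lower in UNPD, and the dashed line is the median of 0.20. The higher calls form a narrow band over bright genes, with a median fold of 1.66, and the lower calls spread over a wider range, with a median fold of 2.74.

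The 12 genes with the largest increases were taken from called genes with full symbols, groups that did not overlap and signals above the dim-signal level (the 40th percentile of an array, under which a gene is called dim) on all 4 arrays. Ltf, which encodes lactoferrin, had log2 signals of 11.37 and 10.76 on the UNPD arrays and of 8.12 and 8.27 on the UNSC arrays, a difference of 2.87 ± 0.48 (adjusted p = 0.00209). Stfa3, a stefin that inhibits cysteine proteases, stood at 12.41 and 12.34 against 10.35 and 10.28, and its relative Stfa2l1 at 10.85 and 10.97 against 8.79 and 9.12, differences of 2.06 ± 0.25 and 1.96 ± 0.28. For both stefins the replicates of either group lay close together. Ngp, neutrophilic granule protein, was higher by 1.88 ± 0.24, with 14.77 and 14.68 against 12.80 and 12.88.

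Ccl9, a chemokine made by myeloid cells, had signals of 12.56 and 13.01 in UNPD and of 10.85 and 10.83 in UNSC. Its second probe set gave a difference of 2.06 beside the 1.94 of the first. Tubb6, a β-tubulin, was higher by 1.91 ± 0.22, Lfng, the glycosyltransferase that modifies Notch receptors, by 1.93 ± 0.29, and Plekhg4 by 1.87 ± 0.33. Prg2, the major basic protein of eosinophil granules, was higher by 2.64 ± 0.52, with UNPD arrays at 9.07 and 7.66 against 5.29 and 6.16, but lost its call without UNPD replicate 1 (adjusted p = 0.0631). Tmem217 was higher by 2.29 ± 0.43 and was not called without that array either (adjusted p = 0.0503). Among genes at or under the dim-signal level on both UNSC arrays, Chit1, a chitinase of macrophages, was at least 3.56-fold higher, and Aif1l, an actin-binding protein, at least 3.13-fold.

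The 12 largest decreases, chosen by the same rule, ranged from -3.46 to -2.95. Asxl2, a Polycomb-associated chromatin protein, had log2 signals of 5.99 and 5.88 in UNPD and of 9.16 and 9.62 in UNSC, a difference of -3.46 ± 0.43 (adjusted p = 0.00123). Of its other 4 kept probe sets, 3 were called lower as well and the fourth, at 1.09, was not called. Cask, a membrane-associated scaffold kinase, stood at 7.56 and 7.88 against 10.87 and 11.26, a difference of -3.35 ± 0.34, and its other 3 probe sets lay between -4.25 and -2.19. Kdm7a, a histone demethylase, was lower by 3.24 ± 0.36 on the log2 scale, with 5.87 and 6.68 against 9.44 and 9.58. Its other kept probe sets gave -2.34, called, and -1.14, 0.28 and 1.28, not called. Taf1, the largest subunit of the general factor TFIID, had 6.29 and 7.69 against 10.09 and 10.20 (-3.16 ± 0.45), and the splicing factor gene Prpf39 differed by -3.13 ± 0.46. In each of these genes the UNSC arrays were close together and both UNPD arrays lay far below them.

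Further large decreases were those of Alkbh8, a tRNA methyltransferase (-3.21 ± 0.45), Ythdc2, a reader of methylated RNA (-3.06 ± 0.43), Ppm1k, a mitochondrial phosphatase (-3.04 ± 0.38), Alg6, an enzyme of N-glycan assembly (-3.04 ± 0.50), Slc26a2, a sulphate transporter (-3.03 ± 0.53), Zkscan8, a zinc finger factor (-2.97 ± 0.38), and Dock9, a Cdc42 exchange factor (-2.95 ± 0.48). The other kept probe set of Alkbh8 was called lower as well (-2.2), but that of Alg6 gave 1.30 and was not called (adjusted p = 0.208). Those of Dock9 gave -4.4 and -2.9, both called, and 1.93 and 0.99, not called. Among genes at or under the dim-signal level on both UNPD arrays, Zfp397 was at least 5.94-fold, Zfp952 at least 4.17-fold and Scai, a regulator of cell migration, at least 4.13-fold lower. Egfl6 was at least 12.2-fold lower but was not called without any 1 of the 4 arrays (adjusted p up to 0.117).

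**Figure D2:**
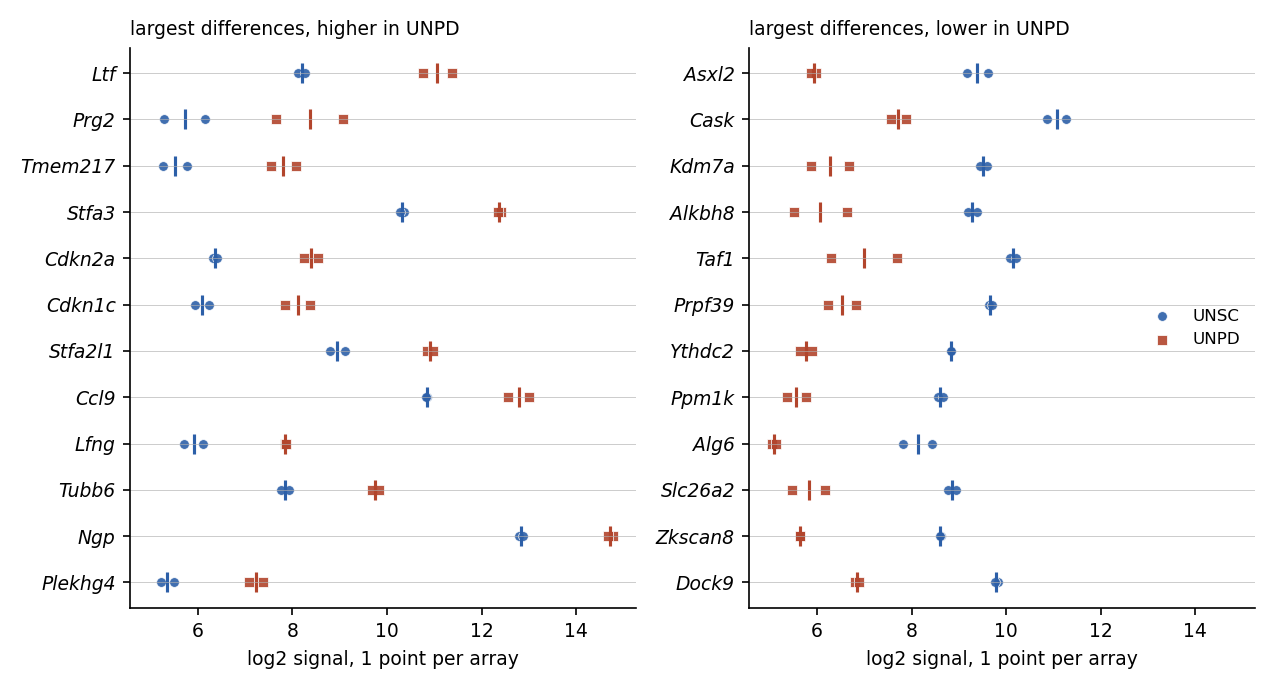
Log2 signal per array (1 point each; vertical ticks are group means) for the 12 genes with the largest called increases (left) and the 12 with the largest called decreases (right) among genes above the dim-signal level on all 4 arrays; squares are UNPD and circles UNSC. In all 24 genes the arrays of the groups do not overlap, as the choice of genes required.

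Granule genes were read by granule class. None of the 13 measured primary granule genes was called under the deposited scaling: Mpo, myeloperoxidase, had signals of 15.32 and 15.27 in UNPD and of 15.12 and 15.11 in UNSC, and the neutrophil proteases differed by 0.62 ± 0.22 (Elane, adjusted p = 0.0628), 0.44 ± 0.18 (Prtn3) and 0.34 ± 0.19 (Ctsg). The median of these 13 genes was 0.34 beside 0.20 over all genes tested, and it was -0.01, 0.74 and -0.18 under the quantile, 75th percentile and cyclic loess scalings, with 0, 8 and 0 members called higher and 1, 0 and 1 lower. In the fit of the 4 arrays alone, 9 were called higher. All 13 lay above the dim-signal level on the 4 arrays. Of 19 secondary and tertiary granule genes, 10 were called higher and none lower, with a median of 0.93 that stayed between 0.93 and 1.33 under the 4 scalings. Under the 75th percentile 17 were called higher, and 16 in the fit of the 4 arrays alone. Quantile normalization gave 8 higher calls, and cyclic loess 9 higher and 1 lower. Under all 4 scalings 6 were called higher. The difference between the classes was not tested. With 1 array left out, in the order above, 5, 6, 5 and 5 were called higher.

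Within this class Lcn2, which binds bacterial siderophores, had signals of 14.66 and 14.58 against 13.38 and 13.50, a difference of 1.18 ± 0.18. Lcn2, Ltf and Ngp stayed called under every scaling. Mmp9, the gelatinase of tertiary granules, was at least 3.52-fold higher, with 7.14 and 6.14 in UNPD against 3.50 and 4.45. Both UNSC values were dim, and Mmp9 lost its call without UNPD replicate 1. The second probe set of Mmp9, at 6.26 and 4.41 against 2.95 and 5.22, overlapped between groups and was not called (1.25, adjusted p = 0.259). Camp, the cathelicidin, was higher by 0.71 ± 0.20 under the deposited scaling but not called under 2 of the 4 scalings or without any 1 array (adjusted p up to 0.17). Mmp8, the neutrophil collagenase, stood at 5.50 and 5.22 against 5.22 and 4.09 and was not called (adjusted p = 0.372). Chil3, a chitinase-like protein, had 15.31 and 15.24 against 15.10 and 15.12. Chil3 was not called at 0.17 ± 0.20 under the deposited scaling and was called lower after cyclic loess, at -0.43.

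Because C/EBP factors bind the promoters of late granule genes, the 250 bases before the start of each gene were searched for the letters TTGCNNAA, a core of the C/EBP element, on both strands. The sequences are from RefSeq (GRCm38.p6), each is written along its gene's strand, and capitals mark the match. The 3 genes shown are members of the class that stayed called without each array and held a match:
Ltf (chr9:111019191-111019250, plus strand, match on the opposite strand): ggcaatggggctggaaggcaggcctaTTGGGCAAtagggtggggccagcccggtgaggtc
Ngp (chr9:110419644-110419703, plus strand): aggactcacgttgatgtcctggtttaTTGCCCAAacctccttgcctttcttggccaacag
Lcn2 (chr2:32387922-32387981, minus strand): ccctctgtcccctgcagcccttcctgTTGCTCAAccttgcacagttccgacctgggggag
The match began 75 bases before the start in Ltf, 138 in Ngp and 216 in Lcn2. It was present in 4 of the 8 called granule genes with a sequence and in 3 of the 7 not called. Of all 11701 tested genes with a sequence, 1088 (9.3%) held it. These letters describe the windows and do not show that a factor was bound. Ngp held a further match 11 bases before its start.

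The phagocyte oxidase, which makes superoxide from NADPH, was split. All 5 measured subunits other than the catalytic one were called higher: Cyba stood at 14.80 and 14.71 against 13.85 and 13.87 (0.89 ± 0.17), and Ncf4 at 13.34 and 13.23 against 12.18 and 12.19 (1.10 ± 0.22), though Ncf4 lost its call without UNPD replicate 1 (adjusted p = 0.0512). Ncf1 (0.75), Rac2 (0.66) and Rac1 (0.51) were called higher under 2 of the 4 scalings and lost the call without any 1 of the 4 arrays (adjusted p up to 0.154, 0.162 and 0.171). The other probe set of Rac1 was called in the opposite direction (-0.47, adjusted p = 0.0308). Cybb, the catalytic gp91phox subunit, was lower instead, at 11.60 and 11.65 against 12.47 and 12.55 (-0.89 ± 0.23, adjusted p = 0.0159), under 3 of the 4 scalings, and lost the call without any 1 array (adjusted p up to 0.109). Its other 2 kept probe sets gave -2.05 and -1.05, both called.

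Adhesion molecules moved in both directions. Itgb2, the β2 integrin chain shared by leukocyte integrins, had signals of 12.41 and 12.71 in UNPD and of 11.09 and 10.89 in UNSC, a difference of 1.57 ± 0.23. Its partner chain Itgam (CD11b) stood at 0.47 ± 0.26 and was not called (adjusted p = 0.211). The integrin chain Itgb1, which anchors cells to matrix and stroma, was lower by 1.29 ± 0.24, at 9.09 and 9.82 against 10.76 and 10.73. Its other kept probe sets gave -0.72, -0.75 and -0.10, none of them called. The Itgb1 partner Itga6 (-1.43 ± 0.28) and the hyaluronan receptor Cd44 (-0.92 ± 0.19) were lower too, and both lost the call without UNPD replicate 1. The other kept probe set of Itga6 was called lower as well (-1.485). Those of Cd44 gave -0.80, called, and 0.36, not called. In all, 3 of 16 adhesion genes were called higher and 4 lower, and with 1 array left out 1, 2, 1 and 1 were higher and 1, 4, 3 and 3 lower.

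Of 11 genes of prostaglandin and leukotriene synthesis, 2 were called higher and 3 lower, and with 1 array left out 0, 1, 1 and 0 were higher and 2, 3, 2 and 3 lower. Ptgs2, the inducible cyclooxygenase, gave the largest called fold of this comparison among genes at the dim-signal level, at least 12.8-fold lower, with 8.37 and 8.72 on the UNSC arrays and 0.60 and 3.00 on the UNPD arrays. The second probe set of Ptgs2 was lower by 2.29 on the log2 scale but was not called (adjusted p = 0.266) and was dim on the UNPD arrays as well. Pla2g4a, the phospholipase that releases arachidonic acid for cyclooxygenase, was lower by 2.01 ± 0.31, at 8.36 and 9.15 against 10.75 and 10.77. The leukotriene genes Alox5 (0.81 ± 0.33, adjusted p = 0.0916) and Lta4h (0.27 ± 0.28) were not called.

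Of 30 cytokine receptor genes, 3 were called lower (10%, beside 15.2% of all genes) and 7 higher (23.3%, beside 10.6%). The 3 lower ones were receptor genes for interleukin-1 family cytokines. Il1r1, the signalling receptor for interleukin-1, was at least 8.5-fold lower, with 7.92 and 8.01 in UNSC and 3.83 and 3.89, both dim, in UNPD. Its co-receptor Il1rap was lower by 1.57 ± 0.30, at 7.94 and 8.15 against 9.50 and 9.74, and Il18rap, the co-receptor for interleukin-18, had 7.46 and 8.55 against 10.32 and 10.36 (-2.33 ± 0.36). These 3 were the only members called lower among 30 cytokine receptor genes, under each scaling and without each array, while 7 were called higher, or 0, 3, 0 and 0 with 1 array left out. Csf3r, the receptor for the granulocyte growth factor G-CSF, was higher by 0.51 ± 0.16 and called without 1 of the 4 arrays only (adjusted p up to 0.292).

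Of 21 Toll-like receptor and adaptor genes, which sense microbial products, 4 were called lower in each of the 4 scalings. Under the deposited scaling that was 19%, beside 15.2% of all genes, and none was called higher. Under the quantile, 75th percentile and cyclic loess scalings 2, 6 and 2 were called higher. Tlr7, a sensor of single-stranded RNA, had 6.82 and 7.86 against 9.27 and 9.35 (-1.97 ± 0.42), and Tlr4, the endotoxin receptor, 7.67 and 8.64 against 9.99 and 10.10 (-1.89 ± 0.41). With 1 array left out 0, 5, 3 and 1 were called lower: Tlr7 lost its call without UNPD replicate 1 (adjusted p = 0.0798), and Tlr4 lost it without UNPD replicate 1 or UNSC replicate 2 (adjusted p = 0.0905 and 0.0521). Of 34 interferon-stimulated genes, 9 were called lower and 2 higher, and 6, 8, 6 and 6 lower and 1 higher each time with 1 array left out. The RNA sensors Ifih1 (8.20 and 8.05 against 9.79 and 9.92, a difference of -1.73 ± 0.23) and Ddx58 (-1.20 ± 0.21) were lower, as were Parp14 (-1.83 ± 0.32) and the ubiquitin ligase gene Dtx3l (-1.11 ± 0.22). Ifi35 was higher by 0.96 ± 0.18. The median of this list was -0.34 and moved to within 0.07 of 0 under each of the other 3 scalings. The median of all genes rose as well, from 0.20 to 0.31, 0.60 and 0.33. Lower calls in this list numbered 9, 8 and 8 under those scalings, and 8 genes were called lower under all 4.

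Signalling genes of the Src and Syk pathways held 3 called higher and 5 called lower among 23, and with 1 array left out 1, 3, 1 and 1 higher and 1, 5, 4 and 2 lower. In the fit of all arrays, 13% were thus called higher and 21.7% lower, beside 10.6% and 15.2% of all genes. Fgr, a Src-family kinase of myeloid cells, was higher by 1.16 ± 0.19, at 8.34 and 8.34 against 7.10 and 7.25. Ptprc (CD45), the phosphatase that activates Src kinases, was lower by 1.79 ± 0.31, at 10.98 and 11.64 against 13.02 and 13.19.

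Immediate early genes, which are transcribed within minutes of a stimulus, were called in the lower direction alone under the deposited scaling. The lower calls were 5 of 31 (16.1%), about the 15.2% of all genes. Higher calls numbered 1, 8 and 2 under the quantile, 75th percentile and cyclic loess scalings. With any 1 array left out 4 were lower, and 2 were higher without UNSC replicate 1. Dusp1, a phosphatase of MAP kinases, had signals of 8.98 and 8.47 in UNPD and of 11.19 and 11.22 in UNSC (-2.48 ± 0.26). Fos stood at 11.99 and 11.50 against 13.51 and 13.51 (-1.76 ± 0.28), Klf6 at 8.85 and 9.49 against 10.59 and 10.55 (-1.41 ± 0.22), and Zfp36, an mRNA decay factor, at 9.46 and 9.02 against 10.24 and 10.13 (-0.94 ± 0.19). For each of these 4 genes every UNPD array lay under every UNSC array, as was so for 27.6% of all genes tested. Of the 4, all but Zfp36, called under 3, were called under all 4 scalings. Jun was lower by 0.97 ± 0.32, called under the deposited scaling alone and not without any 1 array (adjusted p up to 0.223). The median of the 31 genes was -0.01 under the deposited scaling and 0.18 after quantile normalization, so most members did not share the decrease.

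Among 28 myeloid transcription factor genes, 8 were called higher and 4 lower, and with 1 array left out 3, 3, 2 and 4 were higher and 2, 5, 2 and 2 lower. Id1, an inhibitor of helix-loop-helix factors, was higher by 1.05 ± 0.17, at 12.20 and 11.91 against 11.06 and 10.95. Cebpb, a C/EBP factor of emergency granulopoiesis, was higher by 0.76 ± 0.14, at 13.86 and 13.78 against 13.04 and 13.08. The other kept probe set of Cebpb, at 11.38 and 11.45 against 11.58 and 11.55, was not called (-0.16, adjusted p = 0.542). Cebpa, needed to form granulocyte progenitors, was higher by 0.61 ± 0.16 and called under every scaling, but lost the call without any 1 array (adjusted p up to 0.151). Trib1, a pseudokinase that targets C/EBPα for degradation, was lower by 2.54 ± 0.39, with UNSC arrays at 7.36 and 7.44 and UNPD arrays at 5.33 and 4.39, of which 1 was dim. Elf1, an ETS factor, was lower by 1.40 ± 0.27.

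Spi1 (PU.1, 0.56 ± 0.18) and Cebpd (0.47 ± 0.15) were called higher under 2 of the 4 scalings and lost the call without any 1 of the 4 arrays (adjusted p up to 0.198 and 0.232). Gfi1, a repressor that favours granulocytes, stood at 0.41 ± 0.30 (adjusted p = 0.348), and Irf8, a factor of the monocyte line, at 0.52 ± 0.44 (adjusted p = 0.428). Neither was called. Pml (0.61 ± 0.34, adjusted p = 0.214) and Rara (-1.05 ± 0.66, adjusted p = 0.274), the genes joined in the fusion, were not called either. Without UNPD replicate 2, at 6.44 beside 3.69 for the other UNPD array, Rara was called lower (adjusted p = 0.00596). Cebpe, a C/EBP factor of late granules, was not among the genes tested. In the Myc network, Myc (12.15 and 12.08 against 12.03 and 12.05) was not called, while Mxd3, a Max partner that opposes Myc, was higher by 1.45 ± 0.23, at 9.20 and 9.12 against 7.76 and 7.67, and Mga, another Max partner, was lower by 2.45 ± 0.45.

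Genes of stem and progenitor cells were called at about the share of all genes (25.8%), 1 higher and 4 lower of 20, with 0, 1, 0 and 0 higher and 1, 3, 2 and 1 lower with 1 array left out. Bmi1, a Polycomb protein that maintains stem cells, was lower by 1.65 ± 0.25, at 9.40 and 9.69 against 11.14 and 11.27. Myb, a factor of proliferating progenitors, was lower by 0.82 ± 0.18, at 12.79 and 12.85 against 13.60 and 13.68, and was not called without UNPD replicate 1 or UNSC replicate 2 (adjusted p = 0.0712 and 0.072). Kit, the stem cell factor receptor, differed by -0.28 ± 0.20 (adjusted p = 0.336) on its brighter probe set and was called lower on the other, at 6.39 and 6.48 against 7.82 and 7.48 (-1.21, adjusted p = 0.0358). Cd34 was dim on all 4 arrays, with a mean of 3.68 ± 1.03 (SD, n = 2) against 4.41 ± 0.61 in UNPD. Flt3 was listed at 2.36 and 1.96 in UNSC, both dim, and at 5.52 and 3.91 in UNPD, 1 of them dim, and was called higher without 1 of the 4 arrays only (adjusted p up to 0.243). Of the 14 HoxA, Meis and Pbx genes, which drive self-renewal in other leukaemias, none was called. Hoxa9 stood at 6.77 and 4.19 against 3.32 and 4.42, and Meis1 at 5.40 and 6.54 against 5.02 and 4.75.

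Of 7 measured genes for cyclin-dependent kinase inhibitors, which hold cells in G1, 5 were called higher, and all 3 genes of the retinoblastoma family were called lower. Cdkn2a, the locus of p16 and p19ARF, had signals of 8.53 and 8.25 in UNPD and of 6.33 and 6.4 in UNSC (2.03 ± 0.31). Cdkn1c (p57) stood at 7.85 and 8.37 against 6.25 and 5.94 (2.02 ± 0.33), and Cdkn2d (p19) at 11.01 and 10.90 against 9.48 and 9.54 (1.45 ± 0.26). Cdkn2c (p18) was higher by 1.19 ± 0.21, and Cdkn2b (p15) was at least 2.33-fold higher, being dim on both UNSC arrays. Cdkn1a (p21, 0.59, adjusted p = 0.0748) and Cdkn1b (p27, -0.07) were not called. The D-type cyclin gene Ccnd3 was higher as well, by 0.86 ± 0.17, but its other kept probe sets, at 0.69 and -0.35, were not called. In the other direction, Cdk6, a partner of the D cyclins, had 11.28 and 11.61 against 13.40 and 13.36 (-1.93 ± 0.33), and Rb1 (-1.73 ± 0.31), Rbl1 (-1.66 ± 0.27) and Rbl2 (-1.15 ± 0.19), whose products restrain E2F factors, were lower. Of the 26 genes of this list 10 were called higher and 5 lower, the 10 under all 4 scalings, and with 1 array left out 6, 8, 6 and 6 were higher and 4 lower each time. The protein names are background: a probe set for Cdkn2a does not separate p16 from p19ARF.

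Mitotic genes split by length. Of 65 measured, 18 were called higher and 28 lower, 16 and 23 of them under all 4 scalings, and with 1 array left out 5, 15, 8 and 6 were higher and 11, 25, 19 and 18 lower. Cdk1, the mitotic kinase, had 13.36 and 13.31 against 12.36 and 12.50 (0.91 ± 0.16), and the genes of the ubiquitin-conjugating partners of the anaphase-promoting complex, Ube2c (13.82 and 13.75 against 12.68 and 12.65, a difference of 1.12 ± 0.18) and Ube2s (0.96 ± 0.15), were higher, as was Cdca8, a member of the chromosomal passenger complex (13.48 and 13.37 against 12.48 and 12.36). The kinetochore genes Cenpf (8.08 and 8.93 against 10.51 and 10.95, -2.23 ± 0.32) and Cenpe (7.51 and 8.12 against 9.80 and 10.05, -2.10 ± 0.28), the spindle motors Kif20b (-1.96 ± 0.29) and Kif11 (-1.97 ± 0.34), and Mki67 (11.06 and 11.72 against 12.89 and 13.09, -1.60 ± 0.28) were lower. The 33 members with the shorter genomic span, exons and introns together, had a median difference of 0.57, with 16 higher and 4 lower, and the 32 longer ones a median of -1.29, with 2 higher and 24 lower. The split was made after the values were seen. The cause of the link with length was not tested.

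Replication genes gave 11 higher and 7 lower of 44, and with 1 array left out 0, 6, 1 and 0 higher and 2, 7, 6 and 3 lower. Pold1, a subunit of DNA polymerase δ, was higher by 0.89 ± 0.18, and was not called without UNPD replicate 1 or UNSC replicate 2 (adjusted p = 0.0602 and 0.0686). Cdc7, the kinase that fires replication origins (-1.40 ± 0.25), and Rfc1, the large clamp loader subunit (-1.51 ± 0.27), were lower, with Rfc1 at 9.12 and 9.04 against 10.58 and 10.60. Genes of the centrosome and its satellites were mostly lower: 17 of 30 were called lower and 2 higher, with a median of -1.31 that lay between -1.31 and -0.91 under the 4 scalings, and with 1 array left out 12, 17, 15 and 14 were lower and none higher. Pcm1, the scaffold of centriolar satellites, had 6.61 and 7.0 against 9.41 and 9.85 (-2.83 ± 0.26), Akap9 7.31 and 7.52 against 10.11 and 10.26 (-2.77 ± 0.30), and Cep350 7.69 and 8.34 against 10.67 and 10.68 (-2.66 ± 0.36). Their genomic spans had a median of 58.2 kb, against 21.0 kb for the mitotic genes.

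**Figure D3:**
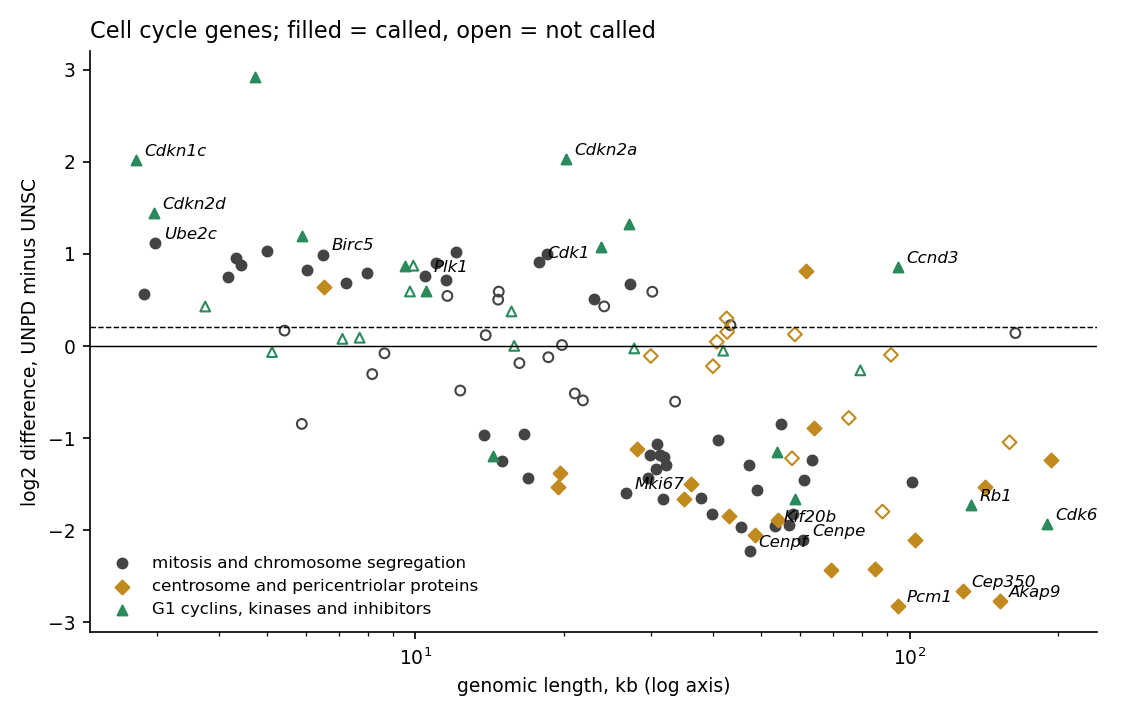
Log2 difference (UNPD minus UNSC) against genomic length in kb (log axis) for 65 mitotic, 30 centrosomal and 26 G1 genes; filled symbols are called genes, the solid line is 0 and the dashed line the median of all genes, 0.20. Called mitotic genes lie mostly above 0 at the short end and below 0 at the long end, and the kinase inhibitor genes Cdkn1c (2.02), Cdkn2a (2.03) and Cdkn2d (1.45) lie above every mitotic gene.

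Respiratory chain and mitochondrial translation genes were higher by small amounts. Of 34 measured genes of respiratory complex I, which oxidises NADH, 28 were called higher and 1 lower, with a median of 0.67 (0.40 after quantile normalization), and 15 were higher under all 4 scalings. Ndufa12 had 14.15 and 13.96 against 13.11 and 13.16 (0.92 ± 0.16) and Ndufb2 13.30 and 13.08 against 12.29 and 12.28 (0.90 ± 0.15). The exception, Ndufs1, the largest subunit, was lower by 1.57 ± 0.29, at 9.18 and 9.95 against 11.12 and 11.15. Of 24 genes of complexes II, III and IV, 16 were called higher and 1 lower (Cox7c), and of 18 ATP synthase genes 14 were higher and none lower. With 1 array left out, complex I had 4, 20, 9 and 10 higher calls, the other complexes 1, 12, 2 and 3, and ATP synthase 3, 9, 3 and 3. The lowest medians in those fits were 0.57, 0.52 and 0.47. After quantile normalization the medians of the other complexes and of ATP synthase were 0.23 and 0.16, below the 0.31 of all genes, with 6 and 3 higher calls.

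Mitochondrial ribosomal protein genes, which serve the same organelle, showed 41 of 73 called higher and none lower, with a median of 0.59 that was 0.58 after quantile normalization, 34 of them under all 4 scalings. Mrpl14 had 11.99 and 11.67 against 10.85 and 10.76 (1.02 ± 0.18), and Mrpl51 13.53 and 13.45 against 12.59 and 12.61 (0.89 ± 0.15). With 1 array left out the count was 4, 24, 11 and 11, at medians of 0.58 to 0.67. The counts for cytosolic ribosomal protein genes turned with the scaling. Under the deposited scaling 10 of 42 were called higher and 1 lower with a median of 0.41. The median was 0.81 under the 75th percentile, with 35 higher and none lower, 0.06 after quantile normalization, with 1 higher and 2 lower, and -0.13 after cyclic loess, with 2 higher and 6 lower. No member of that list kept 1 direction of call under all 4 scalings.

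Proteasome genes were called higher in 26 of 46 and lower in 3, with a median of 0.59 (0.37 after quantile normalization). Psmb6, a catalytic subunit of the core, had 13.30 and 13.21 against 12.32 and 12.39 (0.89 ± 0.16). Psme4, the large activator PA200, was lower by 2.04 ± 0.29, at 10.06 and 10.57 against 12.38 and 12.34. With 1 array left out 2, 15, 4 and 3 were higher and 1, 3, 1 and 1 lower, at medians of 0.53 to 0.60. Of 25 Sm and LSm genes, which form the rings of spliceosomal and decay RNPs, 16 were called higher and none lower, with a median of 0.59 (0.50 after quantile normalization). Snrpf was higher by 1.12 ± 0.19, at 13.26 and 13.13 against 12.06 and 12.08, and Lsm4 by 0.89 ± 0.15. Their higher count was 3, 10, 4 and 4 with 1 array left out.

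Of 20 serine, one-carbon and amino acid response genes, 7 were called higher and none lower. Shmt2, the mitochondrial serine hydroxymethyltransferase, had 13.16 and 13.05 against 11.91 and 11.90 (1.20 ± 0.19). Phgdh, the first enzyme of serine synthesis, was higher by 1.08 ± 0.26 and called without 1 of the 4 arrays only (adjusted p up to 0.0986). The count was 1, 2, 1 and 1 with 1 array left out, while the median of 0.60 stayed between 0.57 and 0.74. Nucleolar genes were split, with 7 of 42 called higher and 11 lower, and with 1 array left out 0, 1, 0 and 0 higher and 0, 11, 6 and 2 lower. Ncl, nucleolin, was lower by 1.5 ± 0.28, at 11.92 and 12.44 against 13.63 and 13.74, and lost its call without UNPD replicate 1 (adjusted p = 0.0535).

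Apoptosis regulators of the BCL2 family gave 3 higher and 2 lower calls among 15, and 1 higher with any 1 array left out. Bak1, a pore-forming death effector, was higher by 1.08 ± 0.18, at 10.63 and 10.57 against 9.55 and 9.49. Pmaip1 (Noxa), which neutralises Mcl1, was lower by 1.85 ± 0.30, at 8.66 and 9.10 against 10.70 and 10.77. Mcl1 itself stood at 0.38 ± 0.23 (adjusted p = 0.25) and was not called. Lysosomal genes held 8 higher and 2 lower calls among 28, with Laptm5, a lysosomal membrane protein of blood cells, higher by 0.97 ± 0.16, and 2, 4, 2 and 1 higher with 1 array left out.

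Chromatin regulators were mostly lower: 32 of 58 were called lower and 1 higher, with a median of -0.95 that lay between -0.95 and -0.55 under the 4 scalings, and 20, 30, 24 and 22 were called lower with 1 array left out. Atrx, a chromatin remodeller, had 8.65 and 9.21 against 11.60 and 11.90 (-2.82 ± 0.29). Kmt2c, a methyltransferase of histone H3 at enhancers, was lower by 2.55 ± 0.34, at 7.74 and 8.11 against 10.57 and 10.37, and Setd2, which methylates H3 along transcribed genes, had 7.78 and 8.34 against 10.28 and 10.37 (-2.27 ± 0.30). Baz2b, a bromodomain protein, was lower by 1.87 ± 0.27. Phc2, a Polycomb protein, was the 1 higher call (0.74 ± 0.18), and was not called without UNPD replicate 1 or UNSC replicate 2 (adjusted p = 0.102 and 0.116). Large ubiquitin ligases gave 14 lower and no higher calls among 21, with a median of -1.41 that lay between -1.41 and -1.01 under the 4 scalings, and 10, 15, 12 and 11 lower with 1 array left out. Huwe1 had 8.76 and 9.32 against 11.21 and 11.16 (-2.15 ± 0.34), and Mycbp2 10.03 and 10.26 against 12.25 and 12.26 (-2.11 ± 0.29).

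The numbered Zfp genes, most of which encode zinc finger repressors, had 93 of 274 called lower and 9 higher, with a median of -0.66 that lay between -0.66 and -0.26 under the 4 scalings. With 1 array left out 48, 78, 58 and 49 were lower and 0, 5, 1 and 2 higher, and under the other 3 scalings 26 to 34 were higher and 69 to 76 lower. Zfp445 stood at 9.05 and 9.36 against 11.68 and 11.71 (-2.49 ± 0.34). Among 10 Dock guanine nucleotide exchange factors 6 were called lower and none higher, 4 of them under all 4 scalings, and 4, 5, 4 and 4 with 1 array left out. Dock10 had 8.87 and 9.43 against 11.77 and 11.88 (-2.67 ± 0.45), and Dock11 10.41 and 10.88 against 12.47 and 12.56 (-1.87 ± 0.28). Kinesin motor genes gave 10 lower and 2 higher calls among 31, and 7, 11, 7 and 8 lower and none higher with 1 array left out. Kif5b, the conventional kinesin heavy chain, was lower by 2.55 ± 0.36, at 8.82 and 9.59 against 11.70 and 11.81.

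**Figure D4:**
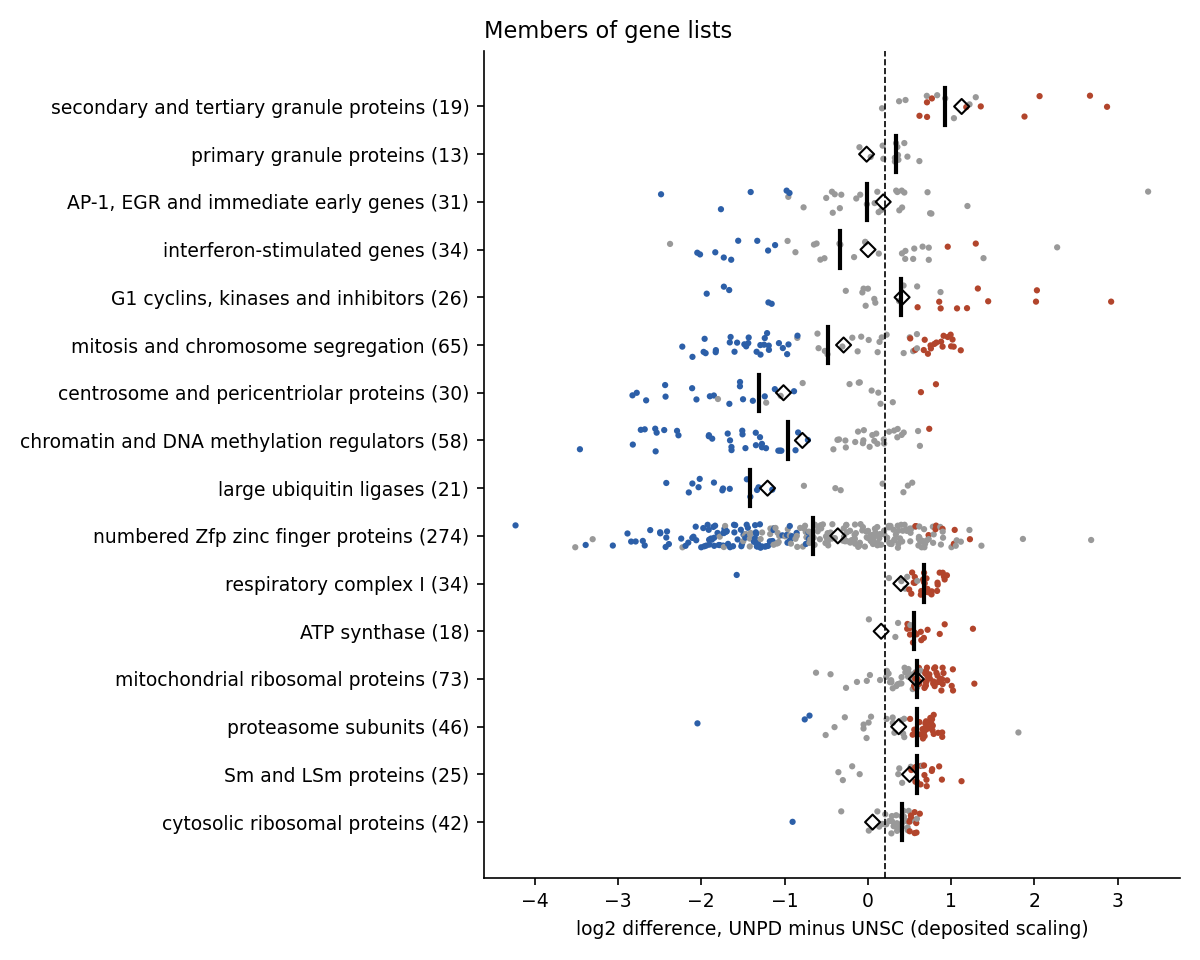
Log2 differences (UNPD minus UNSC, deposited scaling) of the measured members of 16 gene lists, with the number measured in parentheses; red and blue points are members called higher and lower, grey points are not called, bars are list medians and diamonds are list medians after quantile normalization. Centrosome (-1.31), ubiquitin ligase (-1.41) and chromatin (-0.95) lists have medians far below the 0.20 of all genes (dashed), and cytosolic ribosomal and primary granule medians move to near 0 after quantile normalization.

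Differences followed genomic length across the whole table. When the 14487 genes with a length were divided into 10 equal bins, the shortest bin (0.064 to 3.74 kb) had a median difference of 0.47, with 19.0% of genes called higher and 2.48% lower. In bin 9 (64.8 to 115 kb) the median was -0.18, with 4.28% higher and 30.0% lower. The longest bin (115 to 3170 kb) turned back, with a median of -0.11 (0.05 after quantile normalization), 2.28% higher and 23.9% lower. Called higher genes had a median span of 10.5 kb, called lower ones 44.7 kb and genes not called 19.7 kb. The Spearman correlation of difference with length was -0.26 across all of these genes and -0.46 across the 6276 bright ones (-0.37 after quantile normalization), as a description of genes measured on the same arrays. Part of it appeared between replicates: the difference of UNPD replicate 1 from UNPD replicate 2 correlated with length at -0.16, and that of the UNSC arrays at -0.03.

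After a smooth trend on length was subtracted, the fit called 3418 genes, 1440 higher and 1978 lower. Chromatin regulators then had 29 of 58 lower, centrosome genes 15 of 30, ubiquitin ligases 14 of 21 and Zfp genes 89 of 274. Of the higher lists, complex I had 19 of 34, mitochondrial ribosomal proteins 19 of 73, proteasome genes 16 of 46 and secondary and tertiary granule genes 5 of 19. The difference also varied with brightness: of 10 equal bins by mean level, the brightest had 42.2% of genes called higher and 8.64% lower, and bin 7 had 7.75% and 29.2%. Probe sets without a gene symbol had a median of -0.18, with 2.30% called higher and 12.5% lower, beside 0.04, 7.69% and 16.9% for those with 1 symbol. The part of array brightness, RNA quality and length in the gene-level differences was not tested.

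**Figure D5:**
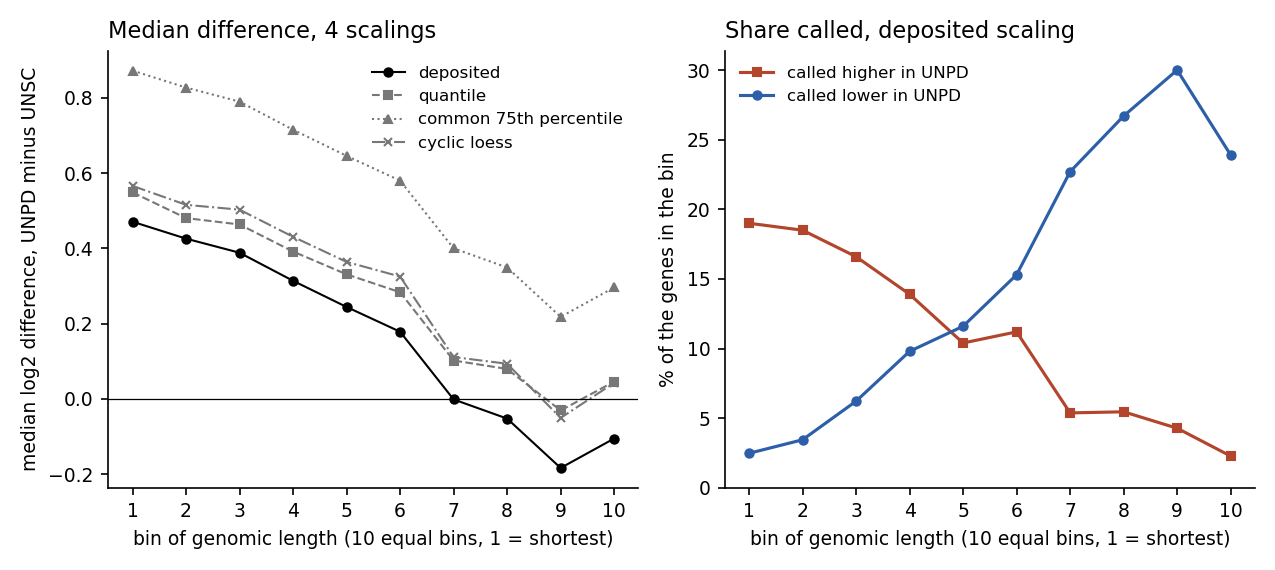
Left, median log2 difference (UNPD minus UNSC) in 10 equal bins of genomic length (bin 1 shortest) under 4 scalings; right, percent of the genes in each bin called higher or lower under the deposited scaling. The median falls from 0.47 to -0.18 between bin 1 and bin 9 under the deposited scaling, and lower calls rise from 2.48% to 30.0%; in bin 10 they are -0.11 and 23.9%.

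Markers of other blood and marrow cells are given by list, beside the 25.8% of all genes called. T and NK cell markers gave none of 14. B cell markers gave 1 of 12: Igll1, a surrogate light chain gene, was higher by 1.40 ± 0.21, at 13.72 and 13.28 against 12.08 and 12.11, while Cd79b, Ms4a1 and Ebf1 were each dim on 1 or both arrays of either group and Pax5 was not called (0.24 ± 0.75). The summed linear signal of the B cell list was 15220 and 11230 in UNPD and 5628 and 5726 in UNSC, most of it from Igll1: without that gene the sums were 1726 and 1301 against 1294 and 1304. Erythroid markers gave 2 higher and 1 lower of 14: Slc4a1, which exchanges anions across the red cell membrane, stood at least 3.26-fold higher, with 6.74 and 6.33 against dim values of 2.24 and 3.14, and Tfrc, the transferrin receptor of all dividing cells, was lower by 1.73 ± 0.32. The third call, Ermap, was at least 2.27-fold higher and lost the call without any 1 array (adjusted p up to 0.208). The summed signal of the erythroid list was 1551 and 1685 in UNPD and 2823 and 2835 in UNSC. The list median went the other way, at 0.67, with 9 members above 0 and 5 below. Car1, carbonic anhydrase I, was dim on all 4 arrays and listed at 0 on 1 of them. The globin genes Hba-a2 (0.82 ± 0.43, adjusted p = 0.19) and Hbb-b2 (0.57 ± 0.71) were not called.

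Megakaryocyte markers gave 2 higher and 1 lower of 14, with F5, coagulation factor V, different by -2.12 ± 0.30, at 8.96 and 9.10 against 11.04 and 11.26, while the platelet markers Gp9 (-0.24), Itga2b (0.18) and Vwf (-0.01) were not called. The median of the megakaryocyte list was 0.32, beside 0.20 over all genes, with 11 members above 0 and 3 below. Summed signals were 9397 and 11650 in UNPD and 8432 and 9011 in UNSC. Monocyte, macrophage and dendritic markers gave 1 higher and 3 lower of 28. Their median was 0.49, with 18 members above 0 and 10 below. Mrc1, the macrophage mannose receptor, was lower by 2.21 ± 0.48, at 5.81 and 6.57 against 8.43 and 8.36, and lost its call without UNPD replicate 1 (adjusted p = 0.082). The summed signal of that list was 16400 and 18500 in UNPD and 13060 and 12720 in UNSC, and 4 of its members were dim on all 4 arrays. Basophil, mast cell and eosinophil markers gave 2 higher, Prg2 among them, and 2 lower of 12. The eosinophil peroxidase gene Epx (1.32 ± 0.56, adjusted p = 0.109) and the basophil protease gene Mcpt8 (-0.63 ± 0.26, adjusted p = 0.0956) were not called. The median of these 12 markers was -0.20, with 6 members above 0 and 6 below. Their summed signals were 4585 and 3982 in UNPD and 4465 and 4608 in UNSC. Among stromal markers only Fn1, fibronectin, was called (1.45 ± 0.33, 10.94 and 11.93 against 9.94 and 10.05), and it was not called without UNPD replicate 2 or UNSC replicate 1 (adjusted p = 0.0792 and 0.0577). Summed signals of the list were 2513 and 4409 in UNPD and 1455 and 1444 in UNSC. The part of admixed cells in the other differences was not tested.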

How the data were processed

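RNA of sorted GFP-positive marrow cells was measured on 10 one-colour arrays, 5 groups of 2, of which 4 are compared here. Per the submitters' processing notes the signals came from MAS5, and the deposited values are log2 signals of 45037 probe sets with a floor of 0. No detection calls or scan files were used here. Probe sets were kept when 2 or more arrays had them above the array's 40th percentile (32686, 72.6%), and of those with 1 symbol in the platform annotation the brightest on average stood for its gene, giving 14581 genes. Gene lengths and promoter sequences were from RefSeq (GRCm38.p6).

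The values were fitted in limma 3.58.1 (R 4.3.3) with lmFit and eBayes with a mean-variance trend, over all 10 arrays as 5 group means (5 residual degrees of freedom), with Benjamini-Hochberg adjustment over all genes tested. The fit was tested on simulated data. Where a gene was at or under an array's 40th percentile on both arrays of 1 group, only a bound ("at least") was given: the mean log2 signal of the brighter group was set against the average, in the dim group, of the percentile or the measured value, whichever was higher. The lists are described by counts and medians. Genes named were the 12 largest called differences in each direction above the dim-signal level whose groups did not overlap, the 8 largest bounds in each direction, list members (those with the smallest adjusted p in each direction first) and a set of anchor genes. The members and lists were chosen with earlier results of these data known. The alternatives were other scalings, filters, probe set rules, sample sets and variance settings, a replicate block, a length trend and each array left out. That a call holds under all 4 scalings, and the split of mitotic genes by length, were chosen after seeing the data. Replicate numbers did not pair the arrays: deviations of same-numbered UNPD and UNSC arrays correlated at 0.012 over all genes and 0.10 over bright ones. Only 2 arrays per group limit the precision.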

Additional observations from a re-analysis of the deposited data

How the results depend on the processing

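The reported settings called 3766 genes, 1551 higher and 2215 lower, with a median difference of 0.20. The total was 6055 under the common 75th percentile, 2323 without the variance trend, 1992 at an adjusted p under 0.01 and 1191 to 2848 with 1 array left out. Adding each array's 75th percentile to the limma model as a covariate left 0 calls; 431 genes then had an unadjusted p under 0.05, against 5492 without it. The higher count was 4412 under the 75th percentile, 2571 after cyclic loess, 2814 with the 4 arrays alone, 2743 with the 6 untreated arrays, 719 without the variance trend, 2784 with array weights and 186 to 836 with 1 array left out. The lower count was 1005 to 2012 with 1 array left out. The median was 0.31 after quantile normalization, 0.60 under the 75th percentile, 0.33 after cyclic loess, 0.13 over the mean of probe sets and 0.13 to 0.24 with 1 array left out. A block on replicate number, which does not pair the arrays, called 3374 genes, 1259 higher and 2115 lower. After cyclic loess Chil3 was called lower, at -0.43, and Actb, called higher as reported and without UNPD replicate 2 but not without the other 3 arrays (adjusted p up to 0.233), stood at -0.0011. The causes were not tested. The 75th percentile and the group cannot be told apart with the 4 arrays.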
